A study of Mus musculus with 8 samples.

Results

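The regions described here are the RXR-bound sites of the newborn mouse heart that lie far from any protein-coding gene. They were selected on measured values, the peak calls of the wild-type (WT) hearts: each is a peak in WT replicate 3 with an overlap of 1 bp or more with one in WT replicate 4, and its summit is outside all protein-coding genes of the RefSeq annotation and more than 20 kb from the nearest gene end. There were 641 such regions among the 4377 peaks of WT replicate 3 that were shared with WT replicate 4, or 14.6% (95% Clopper-Pearson interval 13.6 to 15.7%), and the 4 hearts had 23961 peaks in all. Retinoid X receptor (RXR) chromatin immunoprecipitation followed by sequencing had been performed on whole hearts at postnatal day 0. The 2 WT hearts came from wild-type newborns. The 2 edKO hearts, from newborns described as cardiomyocyte-specific RXRab-/-, lacked Rxra and Rxrb in cardiomyocytes, and what drives the deletion is not stated in these sources. Each heart gave 1 immunoprecipitate and 1 input library and was treated as 1 biological replicate. The other cell types of these whole hearts were not targeted, and a peak list gives neither the cell type of a peak nor the level of the receptors, so the deletion itself was not measured. The choice of regions used the peak calls of both WT hearts, so their number and their fold enrichment in WT hearts are descriptions and were not tested.

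RXR binds DNA as the partner of other nuclear receptors, among them the fatty acid-sensing PPARs, the oxysterol-sensing LXRs, the thyroid hormone receptors and the retinoic acid receptors. The pairs recognise repeats of a short motif, AGGTCA, whose spacing differs between partners, and many bound sites lie in enhancers. An enhancer can act on a gene across long distances and past nearer genes, so a gene on either side of a region is its neighbour and not necessarily its target.

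Sequences were available for the start sites of RefSeq genes, from 250 bases before to 50 bases after the start, and 32 of the 641 regions reached 34 such windows, which belong to 32 noncoding RNA genes. The summit itself lay in the window for 18 regions. The windows below are examples chosen after their values were seen. Lexis1 and D730003I15Rik belong to regions among the 10 strongest, E130101E03Rik, Gm13816, Gm32492 and Gm46838 hold the receptor motif, and Mir1a-1hg is shown as the start of a muscle microRNA host gene. Other windows of strong regions and other windows with the motif are not printed. They come from RefSeq on GRCm38.p6 and are written 5′ to 3′ on the strand of the noncoding gene, with capitals for each AGGTCA motif on either strand and, for Gm13816 and Gm46838, for a direct repeat with 4 bases between the motifs.
Lexis1 (chr4:53218312-53218611, minus strand): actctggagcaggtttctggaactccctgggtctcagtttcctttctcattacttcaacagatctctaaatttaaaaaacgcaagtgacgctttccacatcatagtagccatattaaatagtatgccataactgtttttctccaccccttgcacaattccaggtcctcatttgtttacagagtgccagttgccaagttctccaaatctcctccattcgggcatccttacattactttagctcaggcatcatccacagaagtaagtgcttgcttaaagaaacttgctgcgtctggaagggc
D730003I15Rik (chr1:191224204-191224503, plus strand): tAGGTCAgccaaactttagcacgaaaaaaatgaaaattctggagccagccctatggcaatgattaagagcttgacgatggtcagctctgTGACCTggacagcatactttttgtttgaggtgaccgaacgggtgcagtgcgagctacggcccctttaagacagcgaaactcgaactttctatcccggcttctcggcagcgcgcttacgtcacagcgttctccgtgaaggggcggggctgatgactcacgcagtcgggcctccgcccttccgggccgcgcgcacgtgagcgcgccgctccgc
E130101E03Rik (chr9:24973958-24974257, plus strand): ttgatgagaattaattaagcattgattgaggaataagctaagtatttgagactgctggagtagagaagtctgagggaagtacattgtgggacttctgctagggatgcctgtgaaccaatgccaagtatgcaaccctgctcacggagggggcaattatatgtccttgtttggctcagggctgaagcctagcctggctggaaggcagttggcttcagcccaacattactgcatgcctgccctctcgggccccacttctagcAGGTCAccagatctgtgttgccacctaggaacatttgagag
Gm13816 (chr2:92741980-92742279, plus strand): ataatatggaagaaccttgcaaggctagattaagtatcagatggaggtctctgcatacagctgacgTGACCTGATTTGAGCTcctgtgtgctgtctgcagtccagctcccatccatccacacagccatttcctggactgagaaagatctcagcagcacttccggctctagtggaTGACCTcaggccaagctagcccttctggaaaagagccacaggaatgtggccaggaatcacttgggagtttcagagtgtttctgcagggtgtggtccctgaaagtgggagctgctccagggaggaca
Gm32492 (chr19:56668817-56669116, plus strand): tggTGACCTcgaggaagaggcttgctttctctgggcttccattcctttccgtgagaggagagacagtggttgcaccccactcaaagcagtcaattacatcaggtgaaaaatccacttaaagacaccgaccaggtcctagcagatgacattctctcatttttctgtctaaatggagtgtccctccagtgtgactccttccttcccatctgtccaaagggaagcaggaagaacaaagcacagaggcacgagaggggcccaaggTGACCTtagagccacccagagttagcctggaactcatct
Gm46838 (chr3:105825804-105826103, minus strand): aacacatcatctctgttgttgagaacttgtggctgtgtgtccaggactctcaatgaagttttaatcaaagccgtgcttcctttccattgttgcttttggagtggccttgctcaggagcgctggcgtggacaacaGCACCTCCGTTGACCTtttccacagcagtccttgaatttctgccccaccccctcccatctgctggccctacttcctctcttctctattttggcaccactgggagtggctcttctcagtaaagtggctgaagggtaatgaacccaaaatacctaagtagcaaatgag
Mir1a-1hg (chr2:180385354-180385653, plus strand): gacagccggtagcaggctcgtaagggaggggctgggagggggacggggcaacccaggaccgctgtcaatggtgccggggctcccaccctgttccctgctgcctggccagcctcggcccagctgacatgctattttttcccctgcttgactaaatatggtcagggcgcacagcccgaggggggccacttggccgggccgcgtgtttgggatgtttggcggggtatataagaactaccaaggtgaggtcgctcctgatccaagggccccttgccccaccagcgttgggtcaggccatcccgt

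The motif AGGTCA, searched on both strands, was present in 10 of the 34 windows under far regions (29.4%) and in 16.3% of all 32851 start windows of this length. Repeats were searched as 2 copies in the same direction with up to 2 mismatches in the 12 motif bases. A repeat with 4 bases between the copies, the arrangement known for LXR and thyroid hormone receptor pairs, was found in 2 of the 34 windows and in 3.02% of all windows. One with 1 base between the copies, the arrangement known for PPAR pairs, was found in 1 of the 34 and in 3.86% of all. The 34 windows cover only the part of a region that reaches a start site, and a repeat that contains the exact single motif was counted under both. The 34 are all at noncoding RNA genes, while the set of all windows also holds starts of protein-coding genes, so the 2 sets are unlike. The 2 windows of Gm36169 among the 34 are almost the same sequence. The Gm46838 repeat, AGGTCAACGGAGGTGC on the opposite strand of the gene, had 2 mismatches, the most allowed. It contained the summit of a region 24.6 kb from Rap1a, which was enriched 16.4-fold in WT replicate 3 and 6.42-fold in WT replicate 4. Fold enrichment is the authors' ratio of the fragments piled up at the summit to the local background of the same heart. The Gm13816 repeat, AGCTCAAATCAGGTCA, had 1 mismatch and lay 314 bp from the summit of a region 127 kb from the sulfotransferase gene Chst1, with fold enrichments of 26.7 and 8.52. At the start of E130101E03Rik, in the gap beside the cardiac T-box gene Tbx20, the motif lay 49 bp from the summit. At D730003I15Rik, beside the stress-response gene Atf3, 2 motifs lay 264 and 352 bp from the summit, and at Gm32492, beside the beta-1 adrenergic receptor gene Adrb1, 2 motifs lay 47 and 305 bp from it. No motif was in the printed windows of Lexis1, whose summit lay 61 bp outside the window, and of Mir1a-1hg, the host gene of a muscle microRNA, whose window contained the summit.

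Far regions were set beside shared regions elsewhere in the genome. Summits more than 20 kb from genes made up 14.6% of shared WT peaks, while the bases that satisfy this distance made up 45.5% of the annotated span, or 1188 Mb. This is 0.539 shared regions per Mb, against 20.8 within 1 kb of a gene end, 1.58 inside genes and 1.52 at 1 to 20 kb from genes. Of the 3124 peaks of WT replicate 3 that lay far from genes, 20.5% (19.1 to 22.0%) were shared with WT replicate 4. The same share was 22.9% over all peaks of WT replicate 3, 27.3% at gene ends, 20.5% inside genes and 22.7% at 1 to 20 kb. Intervals on shares of regions cover counting error only, since regions of 1 heart are not replicates.

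**Figure D1:**
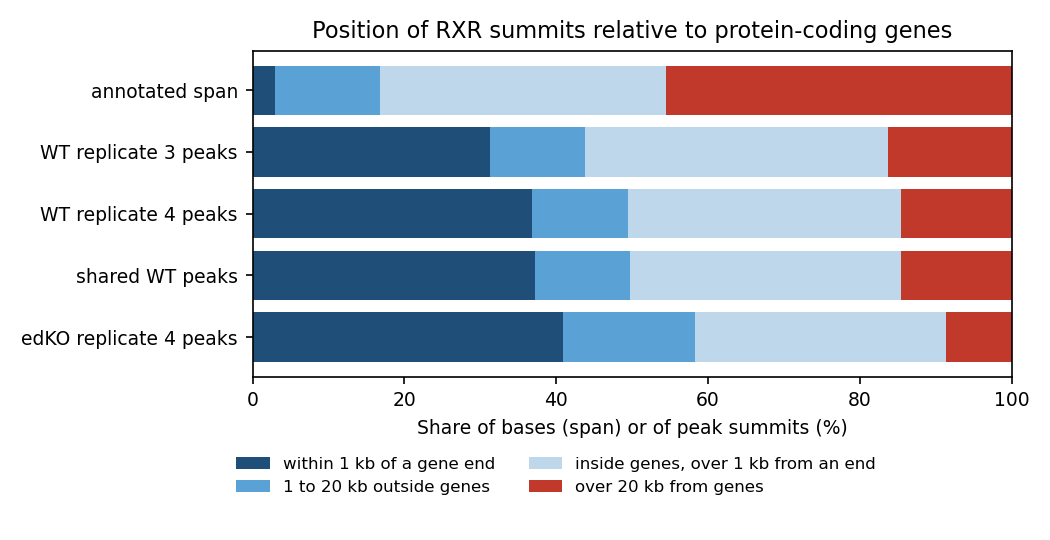
Position of RXR peak summits relative to protein-coding genes, as stacked shares in percent, for the annotated span (share of bases), the peaks of each WT heart, the shared WT peaks and the peaks of edKO replicate 4 (shares of summits). Summits over 20 kb from genes make up 16.3% and 14.6% of the peaks in the WT hearts and 8.66% of the 127 peaks of edKO replicate 4, against 45.5% of the bases.

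Median fold enrichment in far regions lay close to that over all shared peaks. In WT replicate 3 the fold enrichment of the 641 regions ran from 3.21 to 60.9 with a median of 9.81 and quartiles of 6.60 and 14.4. In WT replicate 4 it ran from 2.90 to 32.6 with a median of 6.13 and quartiles of 5.13 and 7.74. The medians over all shared peaks were 9.47 and 6.13, and at gene ends 8.75 and 5.91. Far regions held 4 of the 25 strongest shared peaks and 9 of the 100 strongest, ranked by the mean of both hearts, and made up 14.6% of shared peaks. Of the 100 strongest, 38 lay at gene ends, 36 inside genes and 17 at 1 to 20 kb. Those classes made up 37.2%, 35.7% and 12.5% of shared peaks. The 2483 far peaks of WT replicate 3 without a partner had a lower median fold enrichment, 5.17. It was also 5.17 over all peaks of WT replicate 3 without a partner, and 4.88 for those at gene ends. The fragments recovered at a summit, computed from the authors' fold enrichment and −log10 p, numbered 38 in replicate 3 and 23 in replicate 4 of the WT hearts, as medians.

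The rule asks for overlapping peaks, so the summits of the 2 WT hearts could not lie far apart. Their median distance was 33 bp, and for 563 of the 641 regions (87.8%) they lay within 100 bp of each other. Over all shared peaks the median distance was 37 bp and the share 83.8%. Fold enrichment was higher in WT replicate 4 than in WT replicate 3 for 108 of the 641 regions. The median ratio of replicate 4 to replicate 3 was 0.647, and it was 0.675 over all shared peaks. Across the 641 regions, which share their 2 libraries and are not independent, the fold enrichments had a Spearman rank correlation of 0.53. The regions with the lowest ratios were beside Gli2, a mediator of Hedgehog signalling (27.0 in WT replicate 3 and 4.15 in WT replicate 4), Prkcq (21.5 and 4.36), the progenitor and endothelial cell antigen gene Cd34 (40.8 and 8.52), Abca1 (23.3 and 5.03, the second of its 3 regions) and the arginine transporter gene Slc7a1 (24.7 and 5.39). Those with the highest ratios were beside Inpp5a, an inositol phosphatase gene (11.6 and 24.2), Tes (3.36 and 6.88), Tmem28 (4.31 and 8.17), Dusp5 (3.73 and 7.01) and Add2 (4.05 and 7.59). Apart from Inpp5a, the high ratios came from regions with 12 to 21 fragments at the summit in WT replicate 3.

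**Figure D2:**
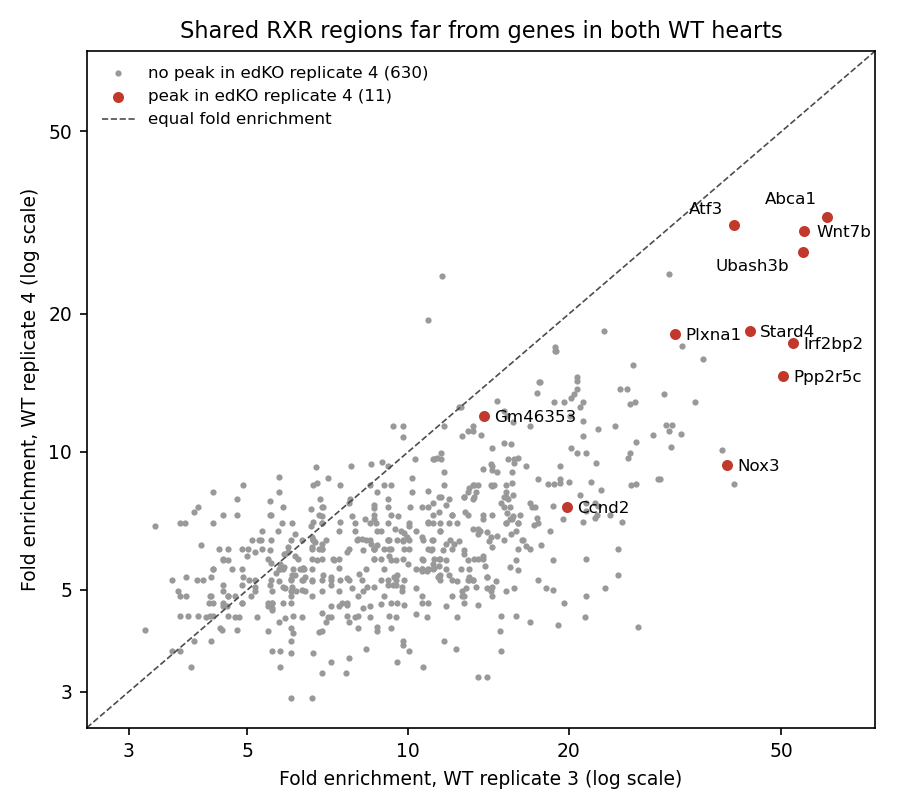
Fold enrichment of the 641 shared regions far from genes in WT replicate 3 (x) and WT replicate 4 (y), both on log scales. Each point is 1 region, red points are the 11 regions that also had a peak in edKO replicate 4, labelled with the nearest protein-coding gene, and the dashed line marks equal values. Most points lie below the line, and 8 of the 10 strongest regions are red.

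The strongest far region lay on chromosome 4 from 53217461 to 53218986 (mm10), 58.3 kb outside Abca1, the cholesterol exporter gene that is a classical LXR target. Its fold enrichment was 60.9 in WT replicate 3, 32.6 in WT replicate 4 and 14.4 in edKO replicate 4, from 203 (95% Poisson interval 176 to 233), 127 (106 to 151) and 56 (42.3 to 72.7) fragments at the summit. Its summit was inside Lexis1, a noncoding RNA gene known as an LXR-induced regulator of cholesterol synthesis in liver, and 61 bp from the start window printed above. A second region 59.6 kb from Abca1 had fold enrichments of 23.3 and 5.03. The third, 104 kb from Abca1, lay inside Mexis, a noncoding RNA gene known in macrophages as an LXR-induced enhancer of Abca1 expression, with fold enrichments of 19.2 and 8.71. Neither of these weaker regions had an edKO peak.

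The region on chromosome 15 from 85610563 to 85611236 lay between Wnt7b, a secreted signalling ligand gene, at 29.0 kb, and Ppara, the gene of the fatty acid receptor PPAR alpha, at 124 kb. It reached 55.1 in WT replicate 3, 30.3 in WT replicate 4 and 8.59 in edKO replicate 4. The same gap held 2 weaker regions, at 8.29 and 7.13 (100 kb from Ppara) and at 9.19 and 5.11 (63.9 kb from Ppara). The third strongest region, on chromosome 9 from 41461821 to 41462300, lay inside Mir100hg, the host transcript of miR-100, and 300.4 kb from Ubash3b. Its fold enrichments were 54.8, 27.3 and 9.35 in the same order. The Atf3 region, on chromosome 1 from 191224105 to 191225106, lay 41.2 kb from this gene and inside D730003I15Rik, with 40.8, 31.3 and 10.4. Among the 10 strongest regions it was one of those with the most similar values in the WT hearts, together with the region 126 kb from Qk, an RNA-binding protein gene (30.8 and 24.4, with no edKO peak).

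The fifth strongest was a region on chromosome 8 from 126735379 to 126736972, 142 kb from Irf2bp2, which encodes a transcriptional corepressor, and 195 kb from Tomm20, a mitochondrial import receptor gene. Its enrichment was 52.5-fold in WT replicate 3, 17.3-fold in WT replicate 4 and 6.49-fold in edKO replicate 4. The region on chromosome 12 from 110373132 to 110373806 lay 73.6 kb from the phosphatase subunit gene Ppp2r5c and 92.5 kb from Dio3, the deiodinase gene that inactivates thyroid hormone. Its values were 50.4, 14.6 and 11.9, so that its edKO replicate 4 value was closer to WT replicate 4 than for any other of the 11 regions with an edKO peak. The region 79.2 kb from Stard4, a cholesterol transfer protein gene, had 43.6, 18.4 and 6.35.

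Further regions of the strongest 25 flanked genes of lipid metabolism, calcium release and transcription. Lpin1, which encodes a phosphatidate phosphatase and PPAR coactivator, lay 350.1 kb from a region at 38.8 and 10.1 in WT replicates 3 and 4. The sterol desaturase gene Sc5d and the sorting receptor gene Sorl1 flanked a region at 34.4 and 12.8. Plpp3, a lipid phosphate phosphatase gene, lay 46.0 kb from a region at 32.6 and 17.1. Ryr2, the calcium release channel gene of cardiomyocytes, lay 26.6 kb from a region at 30.1 and 13.4. Hes1, a Notch target gene, lay 56.8 kb from a region at 30.4 and 11.4 whose summit was 0.063 kb outside the noncoding gene 4632428C04Rik. Sox4, a developmental transcription factor gene, lay 230.4 kb from a region at 31.0 and 10.2 inside the noncoding gene 2610307P16Rik. Thrb, the thyroid hormone receptor beta gene, lay 26.1 kb from a region at 28.7 and 10.9, with the retinoic acid receptor gene Rarb on its far side. Others of the 25 were nearest to Thnsl1, Plxna1, Cd34, Nox3, Eif4g2, Ptma, Oxa1l, Slc38a10 and Mgst2, and their values lay between 23.3 and 40.8 in WT replicate 3 and between 8.52 and 18.4 in WT replicate 4.

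**Figure D3:**
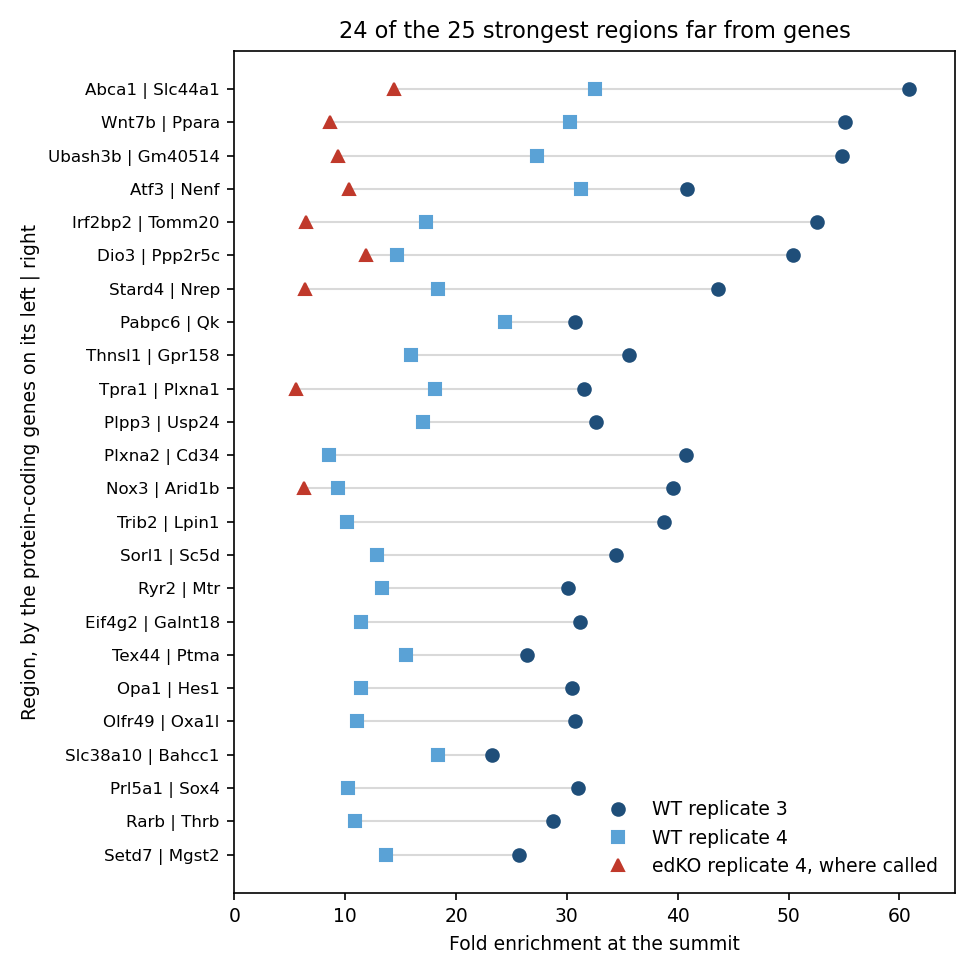
Fold enrichment at the summit (x, linear scale) of 24 of the 25 strongest far regions in WT replicate 3 (circles), WT replicate 4 (squares) and, where a peak was called, edKO replicate 4 (triangles). Rows are named by the protein-coding genes on the left and right of the region. All 24 were higher in WT replicate 3, and 9 of them have a triangle, each below both WT values.

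The next comparison asked how many RXR peaks far from genes were called with and without cardiomyocyte Rxra and Rxrb. Counted by distance alone, without the sharing rule, WT replicate 3 had 3124 far peaks, WT replicate 4 had 685, edKO replicate 3 had 0 and edKO replicate 4 had 11. Both WT counts lay above both edKO counts, with means of 1904.5 ± 1725 in WT and 5.5 ± 7.78 in edKO (SD, n = 2 each). The exact two-sided permutation test over hearts gave p = 0.333, the smallest that 2 hearts against 2 allow, so the difference cannot pass a threshold of 0.05 in this design. The WT hearts themselves differed, with 3124 against 685, and the edKO peaks all came from edKO replicate 4. Far peaks were 16.3% of all peaks in WT replicate 3, 14.6% in WT replicate 4 and 8.66% of 127 in edKO replicate 4 (4.40 to 14.97%). The 8 peaks of edKO replicate 3 included none far from genes, for which the interval reaches 36.9%.

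All 11 far peaks of edKO replicate 4 overlapped one of the 641 regions, or 1.72% of them (0.860 to 3.05%). This was the lowest share of the position classes, with 3.13% (2.34 to 4.10%) at gene ends, 2.69% (1.94 to 3.62%) inside genes, 3.85% (2.40 to 5.82%) at 1 to 20 kb and 2.86% over all 4377 shared regions, the far ones included. The intervals overlap, and the difference was not tested. In edKO replicate 3 the count was 0 of 641, for which the interval reaches 0.574%, and over all shared regions the share was 0.183%. Of the 11 regions, 8 belonged to the 10 strongest far regions and 9 to the 25 strongest. Their median fold enrichments in WT replicates 3 and 4 were 43.6 and 18.1, against 9.76 and 6.13 for the 630 regions without an edKO peak. In edKO replicate 4 itself their median was 6.49, and that of its other 116 peaks was 6.32. Besides those given above, the 11 included the regions nearest to Nox3, an NADPH oxidase gene (39.6 in WT replicate 3, 9.35 in WT replicate 4 and 6.32 in edKO replicate 4), and Plxna1, a semaphorin receptor gene (31.6, 18.1 and 5.56). The remaining 2 were weaker in WT replicate 3, a region 64.8 kb from Gm46353 and 110 kb from Arf6 (13.9, 11.96 and 5.56) and one 123 kb from Ccnd2, the cyclin D2 gene (19.8, 7.59 and 4.30).

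The absence of a peak has a limit set by each list. Among the 72 peaks of edKO replicate 4 at its lowest local background, the weakest had 18 fragments at the summit and a fold enrichment of 4.80. Of the far regions, 499 exceeded that value in both WT hearts, and 488 of these had no peak in edKO replicate 4. In edKO replicate 3 only 2 peaks lay at the lowest local background, the weaker with 24 fragments and a fold enrichment of 6.04, which 312 far regions exceeded in both WT hearts. These counts were not computed for shared regions of the other position classes, so whether they are particular to far regions was not tested. The far regions were also chosen for having peaks in both WT hearts. Fold enrichment is relative to each heart's own background, so a value from an edKO list is not an equal cut in WT hearts. The lists give no value where no peak was called, so a weaker signal at the far regions in edKO hearts was not measured.

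Far regions ranged from 20.1 to 1139 kb from the nearest protein-coding gene, with a median of 57.1 kb and quartiles of 33.7 and 113 kb. There were 281 regions at 20 to 50 kb, 171 at 50 to 100 kb, 127 at 100 to 200 kb, 51 at 200 to 500 kb and 11 beyond 500 kb. Median fold enrichments in WT replicate 3 were 9.76, 9.81, 9.76, 10.3 and 9.19 across these bands, so strength did not fall steadily with distance. Regions with a peak in edKO replicate 4 numbered 2, 5, 2, 2 and 0 in the same bands. The farthest regions were 1139 kb from the protocadherin gene Pcdh20 (7.18 and 5.26 in WT replicates 3 and 4), 751 kb from the RNA-editing enzyme gene Adarb2 (4.59 and 4.84) and 727 kb from the corepressor subunit gene Tbl1xr1 (14.6 and 9.05). Just inside the limit were regions at 20094 bp from the lipid droplet gene Plin2 (15.4 and 9.63), 20152 bp from the interferon receptor gene Ifnar1 (8.21 and 6.46) and 20273 bp from Dnajb12 (10.9 and 7.59). Just outside it were shared peaks at 19406 bp from Slc43a3 (3.56 and 5.13), 19435 bp from Blm (5.74 and 4.36) and 19549 bp from Rpgrip1l (8.90 and 5.84).

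Part of the far regions lay close to another. Of the 641, 196 (30.6%, 27.0 to 34.3%) had another far region within 50 kb, and these formed 81 groups, 22 of them with 3 or more regions. The same share was not computed for other shared peaks or for unshared far peaks. Whether it is particular to these regions was therefore not tested. The gene flanked by the most regions was Irf2bp2, with 11, followed by Tomm20 with 10, Irf2bpl with 9, Lrrc74a with 8 and the growth-promoting transcription factor gene Myc with 7. Irf2bp2 and Irf2bpl are paralogs of the interferon regulatory factor 2 binding protein family of corepressors. They lie on different chromosomes, and each bordered 1 of the 2 largest groups.

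The group of 8 lay between Lrrc74a and Irf2bpl on chromosome 12 from 86795785 to 86837048, with 40.9 kb between the outer summits. Fold enrichments ran from 6.06 to 12.6 in WT replicate 3 and from 3.87 to 12.5 in WT replicate 4, and the region 79.3 kb from Irf2bpl was the highest in both hearts. The group of 7 lay between Irf2bp2 and Tomm20 on chromosome 8 from 126788687 to 126884932, with 95.9 kb between the outer summits and 6 of its summits inside the noncoding RNA gene Gm31718. Values there ran from 5.96 to 12.7 and from 4.36 to 8.46. These were weaker than the single region at 52.5 and 17.3 in the same 337 kb gap described above. Neither group had a peak in an edKO heart. Among the groups of 4, the highest value was in the one beyond Myc, on chromosome 15 from 62257961 to 62328635 at and beyond the noncoding RNA gene Pvt1. Its regions were 268 to 338 kb from Myc, with a maximum of 21.5 in WT replicate 3 and of 7.74 in WT replicate 4. The other groups of 4 lay between Ctnna3 and Reep3, with maxima of 20.7 and 14.6, and between Pomgnt2 and Snrk, with 14.2 and 6.39.

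**Figure D4:**
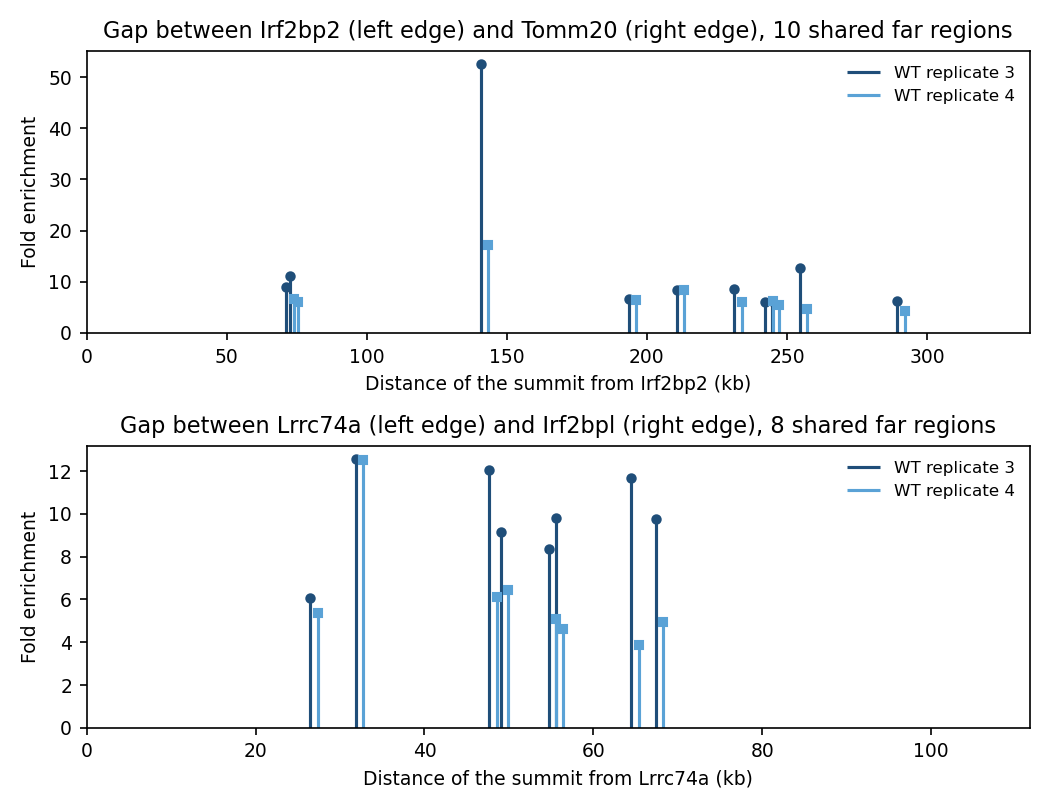
Fold enrichment (y, linear scale from 0) of each far region against the distance of its summit from the gene on the left (x, kb) in the gaps between Irf2bp2 and Tomm20 and between Lrrc74a and Irf2bpl. Dark circles are WT replicate 3 and light squares WT replicate 4, drawn slightly apart. The first gap holds 1 region at 52.5 and 17.3 and 9 others of at most 12.7, and the second holds 8 regions of at most 12.6.

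The rule looked only at protein-coding genes, so noncoding RNA genes of the annotation could lie anywhere relative to the far regions. Of the 641 summits, 173 (27.0%, 23.6 to 30.6%) lay inside a noncoding RNA gene, and 11.4% of the far bases did. The share was 26.4% for the 2483 far peaks of WT replicate 3 that were not shared, inside the interval of the shared ones. Within 5 kb of such a gene, or inside it, were 269 summits (42.0%, 38.1 to 45.9%), against 15.8% of the far bases and 38.7% of unshared far peaks. Within 1 kb of an end of such a gene were 85 (13.3%, 10.7 to 16.1%), against 2.00% of the far bases and 9.26% (8.15 to 10.5%) of unshared far peaks. The shares of far bases take no account of which bases could be bound or mapped. The strongest regions inside such genes were those in Lexis1, Mir100hg, D730003I15Rik, Gm46640 (the Stard4 region) and 4930546K05Rik (the region between Sorl1 and Sc5d), whose values are given above. At the cardiac transcription factor gene Gata5, 2 regions lay at Mir1a-1hg and had fold enrichments of 24.97 and 13.7 and of 13.2 and 8.46. Pvt1, beside Myc, contained the summit of a region at 29.4 and 8.71.

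A microRNA hairpin of the RefSeq table lay within 100 kb of 36 of the 641 regions (5.62%), and 27 regions were the nearest to at least 1 of 34 hairpins. The share of far bases or of other peaks this close to a hairpin was not computed. The count therefore has no background and cannot be read as particular to far regions. The mature sequences below are examples chosen after the values were seen. They are miR-100-5p, whose host gene holds the third strongest region, and the listed let-7 and miR-29 sequences that share 1 seed within each family, with the seed (bases 2 to 8) in capitals, from RefSeq on GRCm38.p6.
mmu-miR-100-5p (chr9:41531437-41531458, plus strand): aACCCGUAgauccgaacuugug
mmu-let-7c-5p (chr15:85706616-85706637, plus strand): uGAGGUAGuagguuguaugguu
mmu-let-7b-5p (chr15:85707325-85707346, plus strand): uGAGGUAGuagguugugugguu
mmu-let-7a-5p (chr13:48538239-48538260, minus strand): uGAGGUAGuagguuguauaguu
mmu-let-7d-5p (chr13:48536078-48536099, minus strand): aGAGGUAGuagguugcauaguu
mmu-let-7f-5p (chr13:48537889-48537910, minus strand): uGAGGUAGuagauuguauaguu
mmu-miR-29b-3p (chr1:195037091-195037113, plus strand): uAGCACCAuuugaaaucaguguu
mmu-miR-29c-3p (chr1:195037600-195037621, plus strand): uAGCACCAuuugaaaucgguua
mmu-miR-29a-3p (chr6:31062673-31062694, minus strand): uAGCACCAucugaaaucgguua

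The miR-100 hairpin lay 69.3 kb from the summit of the Mir100hg region, the third strongest. The let-7 family, known for promoting differentiation, shares the seed GAGGUAG. Its members let-7c-2 and let-7b lay 35.6 and 36.3 kb from the Ppara-side region of the Wnt7b gap (9.19 in WT replicate 3 and 5.11 in WT replicate 4), and let-7a-1, let-7f-1 and let-7d lay 7.29 to 9.45 kb from a region near Zfp169 (9.68 and 6.72). In WT replicate 3 the fold enrichment of both of these regions was below the median over the 641 regions. In WT replicate 4 only the Ppara-side region was below its median of 6.13. Stronger regions also had let-7 hairpins within 100 kb. The let-7a-2 hairpin lay 74.6 kb from the Mir100hg region (54.8 and 27.3). The let-7c-2 hairpin lay 95.8 kb from the strongest region of the Wnt7b gap (55.1 and 30.3). The miR-29 family, known for targeting collagen transcripts, shares the seed AGCACCA. miR-29b-2 and miR-29c lay 44.3 and 44.8 kb from a region near Cd34 (23.0 and 8.26), and miR-29a lay 50.9 kb from a region near Klf14 (14.5 and 8.46). No transcript of these microRNAs was measured.

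The genes on either side of the far regions were then set against 14 lists of genes chosen for heart and nuclear receptor biology. A gene flanks a region if it is the nearest protein-coding gene on either side of the summit. Such a gene need not be the nearest gene of the region, and the nearest is not named for every region below. In all, 851 of 21887 protein-coding genes (3.89%) flanked a far region, and since only a gene next to a wide gap can do so, the 8745 genes bordering a gap of more than 40 kb are the closer background, with 9.73%. Of 196 listed genes bordering such a gap, 61 flanked a far region. The counts by list are descriptions without a test. A wider gap leaves more room for a region, and the share of genes flanking one was 3.59% for genes whose widest gap was 40 to 100 kb, 13.4% at 100 to 300 kb and 18.6% beyond 300 kb. Among listed genes the shares in the same bands were 7 of 60, 27 of 62 and 27 of 74. The median widest gap was 104 kb over all 8745 genes and from 96.7 kb (lipid genes) to 462 kb (cardiac transcription factors) over the lists.

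Factors of the Klf, circadian clock and immediate early families had the highest share, with 12 of 20 bordering genes, or 60%. Besides Atf3 they included Myc, with its strongest region 109 kb away at 29.4 in WT replicate 3 and 8.71 in WT replicate 4. Nfil3, a basic leucine zipper repressor gene under clock control, had a region 25.8 kb away at 26.0 and 9.92. Hlf, a related activator gene, had one 27.2 kb away at 22.7 and 11.2. Klf9, a thyroid hormone-inducible factor gene, flanked a region 84.2 kb away, with Trpm3 nearer at 61.6 kb. This region was higher in WT replicate 4, at 10.9 and 19.3. The strongest regions of the others were 18.7 and 12.8 for Klf4, 17.8 and 6.27 for Bcl6, 14.4 and 9.34 for Klf10, 11.4 and 7.40 for Jun, 9.28 and 7.30 for Fos, 5.32 and 6.71 for Cebpb and 6.63 and 3.63 for Klf6. The Klf4 and Klf6 regions lay 1187 and 1090 kb from these genes, with Actl7b and Akr1e1 nearer. With flanking genes limited to 100 kb the count of this list was 7, and 522 of all protein-coding genes remained.

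Cardiac transcription factors reached 11 of 26 (42.3%), namely Gata4, Gata5, Gata6, Irx3, Irx4, Irx5, Mef2a, Myocd, Tbx3, Tbx20 and Tead1. Gata5 lay 58.0 kb from a region at 24.97 in WT replicate 3 and 13.7 in WT replicate 4. Tbx20, a T-box gene needed for heart formation, lay 199.9 kb from the region at the E130101E03Rik start, at 19.0 and 16.6, with Herpud2 as the nearer gene. Gata6 lay 59.5 kb from a region at 20.7 and 14.3. Irx3 and Irx5 flanked the same region, so the 11 genes are not independent. Tbx3, which specifies the conduction system, and Mef2a, a muscle differentiation factor gene, had regions at 21.2 and 12.8 and at 17.6 and 14.2. Myocd, the myocardin gene, had one at 16.9 and 11.4. Tead1, a Hippo pathway factor gene, had one at 15.2 and 8.46, with Parva nearer. Gata4, Irx3, Irx4 and Irx5 had regions of 6.06 to 12.3 in WT replicate 3, and Blk lay nearer to the Gata4 region than Gata4 did.

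Genes of lipid uptake, storage and synthesis reached 5 of 13 (38.5%). Besides Lpin1, these were Lpl, the lipoprotein lipase gene, with a region 47.3 kb away (22.0 in WT replicate 3 and 8.58 in WT replicate 4), Elovl5, a fatty acid elongase gene (22.2 kb, 18.7 and 7.61), Plin2 and the fatty acid transporter gene Cd36. Cd36 flanked 3 regions, and the nearest, at 30.4 kb, had 7.24 and 5.84. The strongest of the 3, at 10.2 and 8.17, lay 49.5 kb from Cd36, with Gnat3 nearer. LXR targets and sterol transport reached 2 of 7, Abca1 and Mylip, and Mylip, the gene of an LDL receptor-degrading ligase, had a weak region at 4.58 and 4.61. Fatty acid oxidation, whose genes mostly do not border wide gaps, reached 1 of 6, Eci2, with a region 31.2 kb away at 3.97 and 7.39.

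Among receptors and hormone pathways, nuclear receptors and coregulators reached 6 of 22 (27.3%). These were Ppara, Thrb, Rarb, Ppargc1b, Nrip1 and Esrrb. Rarb and Thrb flanked the same regions, the stronger of them 551 kb from Rarb, so the 6 genes are not independent. Thrb counts again among thyroid hormone targets, and Rarb again in the retinoic acid pathway. Ppargc1b, a coactivator gene of mitochondrial metabolism, flanked a region 46.9 kb away at 18.8 in WT replicate 3 and 16.9 in WT replicate 4. Nrip1, a corepressor gene of metabolic receptors, had a region at 10.4 and 5.55, and Esrrb, an orphan receptor gene, one at 4.42 and 6.13. Thyroid hormone targets reached 4 of 9, and besides Dio3, Thrb and Klf9 these included Adrb1, with regions at 18.4 and 6.71 and at 16.2 and 7.30. The retinoic acid pathway reached 2 of 14, Rarb among them.

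Genes of contraction and conduction followed, with 5 of 16 cardiac ion channel and gap junction genes and 3 of 13 sarcomere and calcium genes. Gja1, the gene of the main ventricular gap junction protein, flanked 3, the strongest at 21.2 in WT replicate 3 and 10.8 in WT replicate 4 but 590.4 kb away. The potassium channel genes Kcna5, Kcnj2 and Kcnj8 flanked regions of 6.60 to 11.9 in WT replicate 3. Of the sarcomere list, Ryr2 had the strongest region. Tpm1, the tropomyosin gene, flanked one 114 kb away at 17.5 and 13.4, with Tln2 nearer, and Actn2 flanked one at 4.59 and 6.13. Secreted growth factors reached 6 of 24 (25%), of which all but Wnt7b had regions of at most 7.18 in WT replicate 3.

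Markers of other cardiac cell types were included because the hearts were whole. Endothelial markers reached 5 of 12 (41.7%), led by Kdr, a vascular endothelial growth factor receptor gene (61.5 kb, 21.5 in WT replicate 3 and 7.42 in WT replicate 4) and the cadherin gene Cdh5 (228 kb, 14.3 and 4.97). The others were Flt1, Cldn5 and Erg. Fibroblast and epicardial markers reached 1 of 17, Thy1, and blood and macrophage markers 1 of 5, Tfrc, with 10.9 and 5.55 and with 7.64 and 3.29. The median widest gap was 236 kb for the fibroblast and epicardial list and 125 kb for the endothelial list. The cell type in which a region was bound was not measured.

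**Figure D5:**
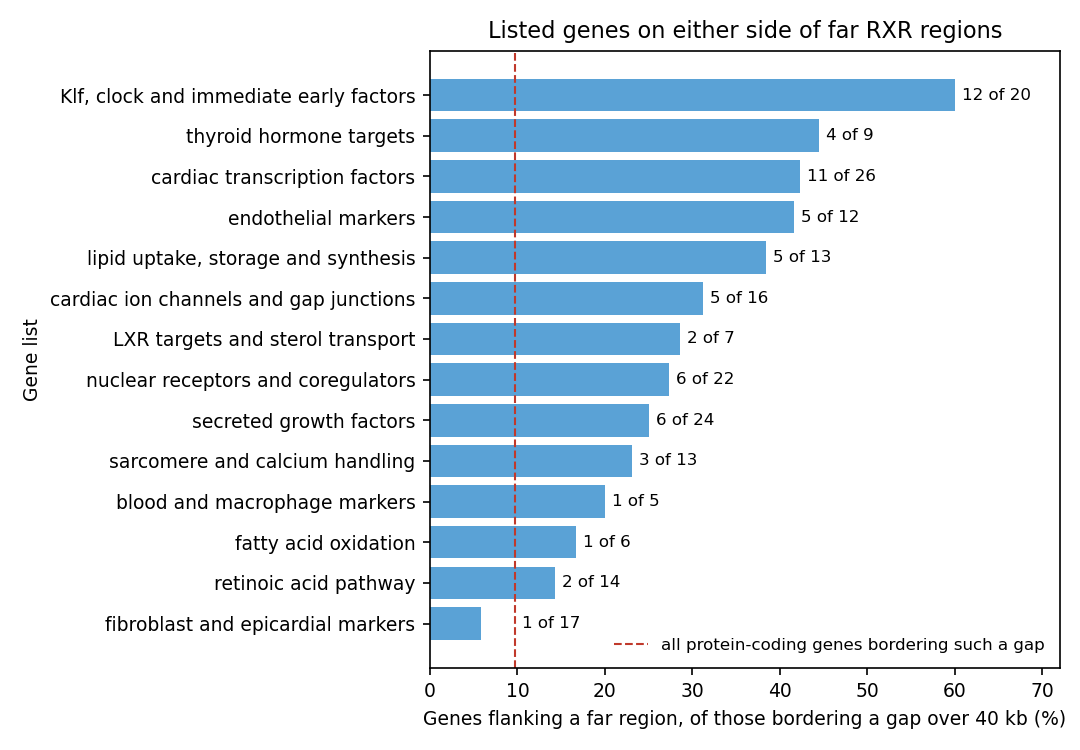
Share of the genes of each list that flank a far region, among those bordering a gap of more than 40 kb between protein-coding genes (x, percent), with counts beside the bars. The dashed line is the share over all such genes, 9.73%, and the bars run from 1 of 17 (fibroblast and epicardial markers) to 12 of 20 (Klf, clock and immediate early factors).

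Genes that flanked a far region often had a shared RXR peak of their own. Inside the gene or within 1 kb of its ends, 231 of the 851 flanking genes (27.1%) had a shared peak, against 932 of the 7894 other genes bordering a wide gap (11.8%). The share was 13.3% over all genes bordering such a gap and 13.1% over all protein-coding genes. Flanking genes were longer, with a median of 41.4 kb against 26.8 kb, and the part of length in this difference was not tested.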

How the data were processed

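RXR immunoprecipitates of 2 WT and 2 edKO newborn hearts were analysed through 1 peak list per heart. Per the submitters' processing notes, the authors used cutadapt, BWA, SAMtools and MACS3 on mm10 (GRCm38), and no versions or settings are given there. The labels describe the run as paired but the reads as single-end. Inputs served only as background to the peak calls, which were made per heart. The authors' deposited fold enrichment is a ratio at the summit, with deposited −log10 p and −log10 q values and deposited start, end and summit positions in bp. Both values are relative to each heart's own background, so depth and enrichment quality move them. WT replicate 3 had 19129 peaks and WT replicate 4 had 4697.

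Fragments at summits were solved from the fold and the Poisson −log10 p, which gave whole numbers within a relative tolerance of 0.001 for at least 99.96% of the peaks of each list. The solution was tested on simulated data. The smallest fragment numbers at a summit were 11, 12, 24 and 17 in WT replicates 3 and 4 and edKO replicates 3 and 4, and total depth is unknown. The handling of duplicate reads is not stated there either, and Poisson intervals cover counting error only.

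Positions came from the RefSeq table of GRCm38.p6 (21887 protein-coding and 16914 noncoding RNA genes). All 342 entries of 14 gene lists (327 genes) matched it. Shares have 95% Clopper-Pearson intervals, and hearts were compared by an exact permutation test with Python 3.11.15, pandas 2.3.3, NumPy 2.4.6 and SciPy 1.17.1. Regions were named by their nearest protein-coding gene. Named were the 25 strongest by mean fold enrichment over the WT hearts, those with an edKO peak, up to 3 per gene list, the 3 largest groups, the 3 farthest, the 5 strongest inside or nearest a noncoding gene, the 3 on each side of 20 kb and the 5 highest and lowest ratios of the WT hearts. Regions at start windows, microRNAs and other groups, and further genes of a list, were named after their values were seen. The regions and lists were chosen with earlier results of these data known. The shares of far bases, genes bordering wide gaps, gap widths, gene lengths, the flanking genes' own peaks, the start windows, the microRNA distance and the edKO call limits were chosen after seeing the data. Since no genome sequence was used here, motifs were searched in start windows in place of summits. Start windows on chromosome 18 were not used here, and values for 2 listed genes and 1 of the 25 strongest regions are not reported here.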

Additional observations from a re-analysis of the deposited data

How the results depend on the processing

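Alternative overlaps, distances, thresholds and gene sets were applied 1 at a time. The number of far regions was 360 beyond 50 kb and 189 when all RefSeq genes were used in place of protein-coding genes, and the share among shared peaks was 18.7% beyond 10 kb, 8.22% beyond 50 kb and 4.32% with all RefSeq genes. These settings leave fewer or more bases that qualify. Using the far peaks of 1 WT heart alone gave 685 without WT replicate 3 and 3124 without WT replicate 4, with shares of 14.6 to 16.3%. The median fold enrichment in WT replicate 3 was 5.57 without WT replicate 4, since unshared peaks then enter, and that of WT replicate 4 was 6.13 without WT replicate 3. The number of regions with an edKO peak was 17 beyond 10 kb, and it ran from 0 without edKO replicate 4 to 11 without edKO replicate 3, so the count rests on edKO replicate 4. The number at noncoding RNA genes was 173 for summits inside the gene and 413 within 20 kb. Apart from the difference in far peaks per heart, the other results answering a comparison stayed within 1.5 times, or within their spread, under all alternatives run. The difference in far peaks per heart between WT and edKO was judged by its sign alone. It stayed positive and ran from 679.5 without WT replicate 3 to 3118.5 without WT replicate 4. Its exact permutation p ran from 0.333 to 0.667, and with the replicate number as a block the difference was 1899 with p = 0.5 over 4 arrangements. The labels do not say that a number marks a litter or day, peak lists allow no check of shared deviations with 2 hearts per genotype, and the hearts were treated as unpaired. List counts fell where flanking genes had to lie within 100 kb, from 12 to 7 for Klf, clock and immediate early factors, from 6 to 3 for secreted growth factors, from 5 to 2 for ion channels and from 2 to 1 for the LXR and retinoic acid lists. With only the nearest gene they fell from 5 to 3 for endothelial markers, from 4 to 2 for thyroid hormone targets, from 3 to 1 for sarcomere and calcium genes and from 1 to 0 for blood markers, which were also at 0 with −log10 q of at least 5. The planned motif comparison around summits was not run, because no genome sequence was used here. The lowest called summit had 17 fragments in edKO replicate 4 and 24 in edKO replicate 3, against 11 and 12 in WT replicates 3 and 4. Total depth is unknown, and its part in the length of the lists was not tested.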
